A study of Mus musculus with 7 samples.

Results

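The 10 genes described here, Glul, Oat, Slc1a2, Rhbg, Lgr5, Axin2, Tbx3, Lect2, Rgn and Gulo, are transcripts of the pericentral zone of the liver lobule or targets of Wnt signalling. They were taken by symbol from a table of FPKM values (read fragments scaled by gene length and library size) of 54532 genes, and all 10 symbols were found once. RNA came from livers of old C57BL/6 mice in 7 libraries. The 3 MDL-800 libraries are from mice on a standard diet that followed supplementation with MDL-800, and the 4 control libraries are from mice on a standard diet alone. MDL-800 is an allosteric compound that stimulates SIRT6, a sirtuin that removes acetyl groups from histones, and the labels used here give neither the dose nor the sex. Whether each library stands for its own mouse is not stated, and the spread behind each p-value is that among these 7.

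Blood enters the lobule at the portal tract and leaves by the central vein, and hepatocytes carry out different tasks along that path. Endothelial cells at the central vein secrete Wnt ligands and the cofactor R-spondin 3, which raise beta-catenin activity in the hepatocytes next to them. Beta-catenin with TCF/LEF proteins then switches on glutamine synthesis, ammonia uptake and a set of feedback regulators, so transcripts such as Glul and Axin2 are read as signs of this signal in liver.

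For 5 of the 10 genes (Glul, Oat, Slc1a2, Axin2 and Lect2) a promoter window of 250 bases before to 50 bases after a transcription start was given by RefSeq on GRCm38.p6. The windows were searched on both strands for the TCF/LEF core, in which each of the letters before CAAAG is A or T (AACAAAG as the first spelling, ATCAAAG as the second, TACAAAG as the third and TTCAAAG as the fourth), with overlapping matches allowed. The core occurred in 2 of the 5 windows, those of Slc1a2 and Lect2, and in 16.9% of 32851 windows of that length. Both matches read ATCAAAG on the strand of the gene, beginning at position -207 in Slc1a2 and at position -32 in Lect2, counted from the RefSeq start. The sequences below show these matches in capitals, and the window of Axin2, the most used reporter of the pathway, is shown beside them because the letters were not in it. Each is given 5′ to 3′ on the strand of the gene. The Slc1a2 window (chr2:102706188-102706337, + strand, the first 150 of its bases) lies inside the deposited gene, at a RefSeq start downstream of the one that the table lists. The Lect2 bases are chr13:56548539-56548788 on the - strand, and those of Axin2 are chr11:108920099-108920348 on the + strand.
Slc1a2: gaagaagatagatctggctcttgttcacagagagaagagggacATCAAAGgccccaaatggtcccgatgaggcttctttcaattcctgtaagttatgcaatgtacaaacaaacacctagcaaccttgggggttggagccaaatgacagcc
Lect2: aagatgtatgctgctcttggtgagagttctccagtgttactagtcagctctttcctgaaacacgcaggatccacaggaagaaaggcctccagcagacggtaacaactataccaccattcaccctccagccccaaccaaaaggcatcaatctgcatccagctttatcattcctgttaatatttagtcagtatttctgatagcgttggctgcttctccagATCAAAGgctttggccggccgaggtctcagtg
Axin2: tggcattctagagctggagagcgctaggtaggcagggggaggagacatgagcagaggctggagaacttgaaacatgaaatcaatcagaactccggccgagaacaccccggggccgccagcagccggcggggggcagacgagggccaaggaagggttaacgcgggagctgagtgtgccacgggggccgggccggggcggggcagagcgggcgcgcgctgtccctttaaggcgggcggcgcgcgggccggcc

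Reads summed over all genes came to 17600066 to 19920469 per library, recovered as whole numbers from the deposited values. The denominators behind the deposited values ran from 14159826 (control 3) to 19454901 (control 2), and were below the summed reads in every library except control 2. Control 1 and MDL-800 2 carried 2173 and 3514 reads of 4 genes of the Y chromosome (Uty, Ddx3y, Eif2s3y and Kdm5d), whereas the other 5 libraries carried 0, so neither group is made of repeats of 1 liver. Xist, the RNA of X inactivation, had 3 reads in control 1, 3 in MDL-800 2 and 0 in control 3, against 15495 to 21104 in the others. Control 3 thus lacked both kinds of transcript and differs in this from the other libraries without Y-linked reads. The libraries with and without Y-linked reads are called Y-positive and Y-negative below, and each member's group difference is also given over the 5 Y-negative libraries (2 MDL-800, 3 control). On the first principal component of the tested genes (49.6% of the variance) the Y-positive libraries stood apart, at 49.7 and 49.9 against -39.1 to -12.8 in the others. On the second, control 3 was farthest from 0, at 43.4 without regard to sign, against 2.2 to 17.3 in the others. Hepatocyte markers were abundant in all 7 libraries: the summed level of 5 markers, albumin among them, ran from 53891 to 81358 FPKM. Kupffer cell markers (8 of 8 found) summed to 193 to 806 FPKM in MDL-800 and 240.1 to 2144 FPKM in control, and neutrophil markers (5 of 5) to 12.3 to 91.1 against 25.2 to 332 FPKM. Sinusoidal endothelial markers (6 of 6) summed to 26.0 to 34.1 against 11.9 to 37.5 FPKM, stellate cell markers (7 of 7) to 39.9 to 68.1 against 20.0 to 57.0, cholangiocyte markers (6 of 6) to 28.8 to 90.9 against 24.2 to 54.8 and lymphocyte markers (7 of 7) to 3.59 to 21.03 against 8.45 to 59.8. None of these markers was at 0 in all libraries, and their part in the results below was not tested.

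For none of the 10 transcripts did the difference between MDL-800 and control livers exceed the spread between libraries by the test used. The limma test over all genes covered 9 members, since Lgr5 fell under its limit of a mean of 1 FPKM. Of these 9, 0 passed at an adjusted p under 0.05, and of 11394 genes tested 0% passed. At an unadjusted p under 0.05, 0 of the 9 members were called in either direction, beside 4.85% of all tested genes (3.23% higher and 1.62% lower in MDL-800). The groups overlapped for all 10 members, the untested Lgr5 included, and did not overlap for 6.45% of all tested genes. With so few members 0 is close to what these shares give, so it marks nothing particular to them. The log2 fold change was above 0 for 3 of the 9 and below 0 for 6, with a median of -0.07, beside 54.2% above 0 and a median of 0.02 over all tested genes. Over the Y-negative libraries the median of the 9 was -0.27 and that of all tested genes 0.02.

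**Figure D1:**
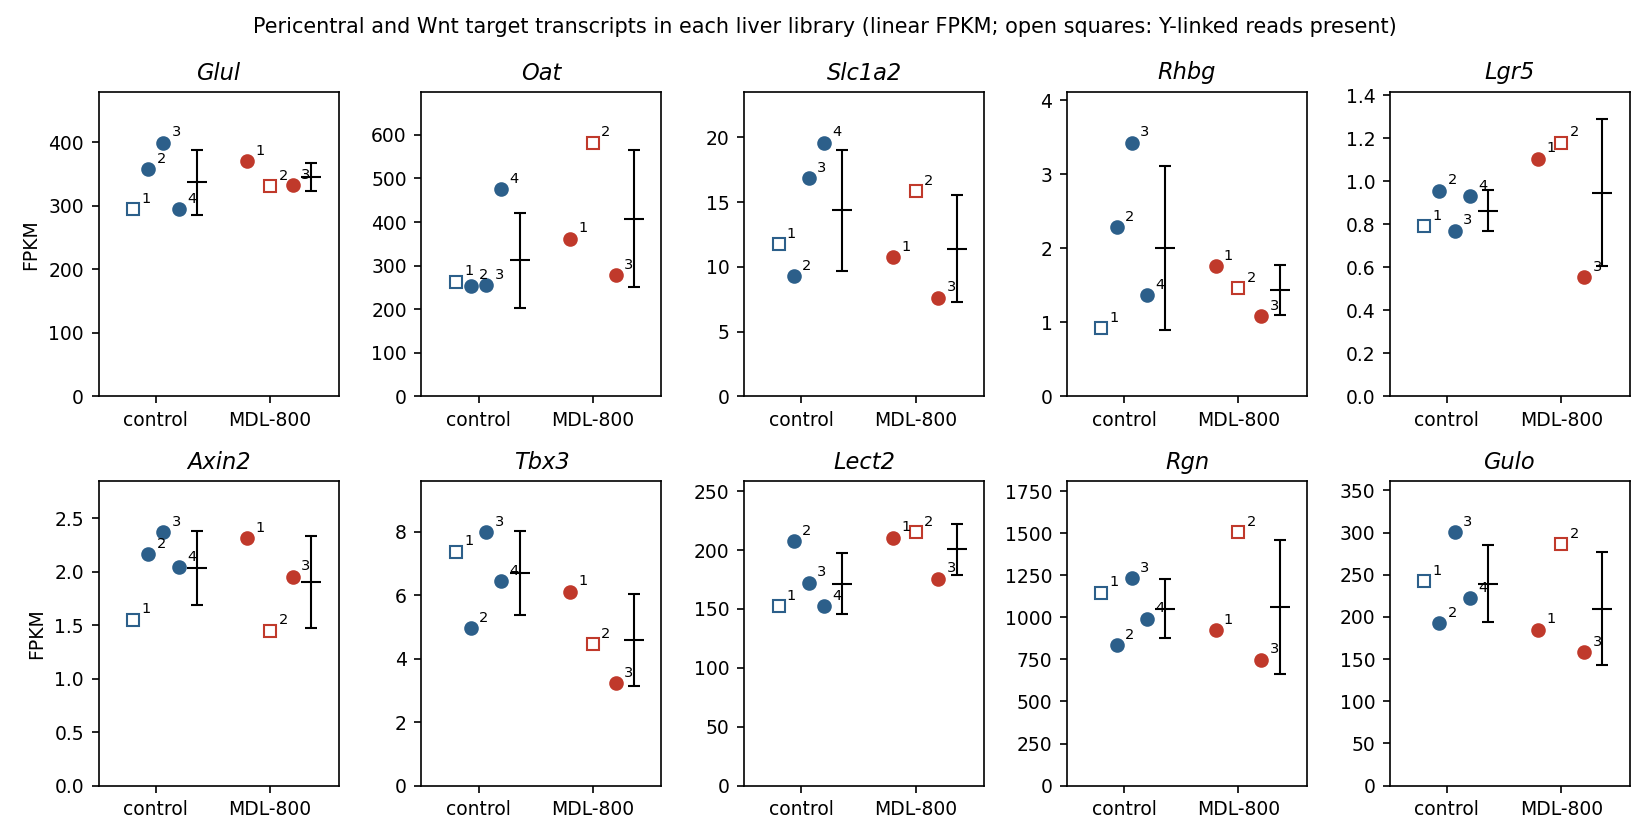
FPKM (linear axis from 0) of each gene in the 4 control and 3 MDL-800 libraries, with replicate numbers beside the points, open squares for the Y-positive libraries and black marks for mean ± SD. The groups overlap in every panel. Oat in control 4 and in MDL-800 2 lies above its other libraries, and MDL-800 3 is lowest for Slc1a2, Lgr5, Tbx3, Rgn and Gulo.

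Levels spanned about 3 orders of magnitude per gene length. Rgn was highest with a mean of 1055 FPKM over the 7 libraries, followed by Oat (353), Glul (340.4), Gulo (227), Lect2 (184), Slc1a2 (13.1), Tbx3 (5.79), Axin2 (1.98), Rhbg (1.76) and Lgr5 (0.899). The order held in 7 of 7 libraries for 6 of the 9 neighbouring pairs. Oat lay above Glul in 2 of 7 libraries, Gulo above Lect2 in 4 of 7 and Axin2 above Rhbg in 4 of 7, so these pairs are not ordered beyond their spread. The metabolic enzymes and the secreted protein thus stood far above the receptors and the Wnt feedback gene, and the rarest transcripts rest on few reads: Rhbg had 26 to 94 reads per library and Lgr5 100 to 196, against 14214 to 23179 for Glul.

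Glul encodes glutamine synthetase, which traps ammonia in the last hepatocytes before the central vein, and as deposited it varied least of the members, by 11.4% (coefficient of variation over 7 libraries). With summed reads as the denominator it varied by 17.3%, more than Gulo (16.4%) and Rgn (17.1%). Glul lies at chromosome 1, 153899944 to 153909723 (GRCm38, as are all gene positions here). It stood at 371, 331 and 333 FPKM in MDL-800 1, 2 and 3 and at 295, 359, 399.5 and 295 FPKM in control 1 to 4. The MDL-800 libraries all lay inside the control range. The means were 345 ± 22.2 FPKM (SD, n = 3) and 337 ± 51.3 FPKM (SD, n = 4), and the log2 fold change of FPKM + 1 was 0.04 with a 95% interval from -0.33 to 0.42 (limma, adjusted p = 0.971). On a fold scale the interval ran from 0.794 to 1.34. Its sign turned in 4 of the alternatives, with values down to -0.016.

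Oat encodes ornithine aminotransferase, a mitochondrial enzyme that feeds ornithine carbon toward glutamate next to the glutamine-making cells (chromosome 7, 132557478 to 132576398). It was at 362, 582 and 278 FPKM in MDL-800 1, 2 and 3 and at 263, 254, 254 and 476 FPKM in control 1 to 4. Control 1, 2 and 3 were nearly equal, and control 4 stood apart from them, above MDL-800 1 and MDL-800 3. The means were 407 ± 157 FPKM (SD, n = 3) and 312 ± 109.5 FPKM (SD, n = 4), which gave a log2 fold change of 0.37 and a 95% interval from -0.41 to 1.15 (limma adjusted p = 0.95). Leaving out control 4 gave 0.59 and leaving out MDL-800 3 gave 0.61. The value fell to 0.080 when MDL-800 2 was left out, to 0.092 under array weights and to 0.017 over the Y-negative libraries, and none of these passed the test. Oat varied by 36.7% (coefficient of variation over 7 libraries), where counting error alone gives 0.87%.

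Slc1a2 encodes a high-affinity glutamate transporter, known best from astrocytes, that pericentral hepatocytes also carry (chromosome 2, 102658659 to 102790784). Its values were 10.7, 15.8 and 7.62 FPKM in MDL-800 1, 2 and 3 and 11.7, 9.30, 16.8 and 19.6 FPKM in control 1 to 4. Control 3, control 4 and MDL-800 2 were high and MDL-800 3 was lowest, so both groups held high and low libraries. With means of 11.4 ± 4.14 FPKM (SD, n = 3) and 14.4 ± 4.68 FPKM (SD, n = 4), the log2 fold change was -0.31 with a 95% interval from -1.04 to 0.42 (limma adjusted p = 0.95). The value was -0.63 over the Y-negative libraries and -0.58 under array weights. Leaving out MDL-800 2 gave -0.56 and control 2 gave -0.49, while leaving out control 4 gave -0.15 and MDL-800 3 gave -0.076.

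Rhbg encodes an ammonia channel of the Rhesus family found on pericentral hepatocytes (chromosome 3, 88242874 to 88254709). It was at 1.76, 1.46 and 1.09 FPKM in MDL-800 1, 2 and 3 and at 0.925, 2.28, 3.43 and 1.37 FPKM in control 1 to 4. The control libraries alone covered more than the whole MDL-800 range. The means were 1.44 ± 0.338 FPKM (SD, n = 3) and 2.0 ± 1.11 FPKM (SD, n = 4), a log2 fold change of -0.24 with a 95% interval from -0.92 to 0.45 (limma adjusted p = 0.95). Without control 3, the highest library, it was -0.025, and without control 1, the lowest, it was -0.42. It was -0.13 without MDL-800 3 and -0.44 over the Y-negative libraries. Its variation was 48.9%, the largest of the 10, and counting alone gives 13.6%. Rhbg shares 1190 of its 1937 exon bases with Gm38392 on the same strand, which is listed at 0 in every library, so the split of reads between them is uncertain.

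Axin2 is a feedback inhibitor that the Wnt signal itself induces and a scaffold of the complex that degrades beta-catenin (chromosome 11, 108920349 to 108950783). It was at 2.31, 1.45 and 1.96 FPKM in MDL-800 1, 2 and 3 and at 1.55, 2.17, 2.37 and 2.04 FPKM in control 1 to 4. MDL-800 2 and control 1, the Y-positive libraries, were the lowest of their groups. The means were 1.91 ± 0.434 FPKM (SD, n = 3) and 2.03 ± 0.348 FPKM (SD, n = 4). The log2 fold change was -0.07 with a 95% interval from -0.42 to 0.29 (limma adjusted p = 0.969), it was -0.029 over the Y-negative libraries, -0.17 without MDL-800 1, and it turned to 0.052 without MDL-800 2.

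Lgr5, the R-spondin receptor that marks Wnt-responsive cells next to the central vein, was the rarest member (chromosome 10, 115450311 to 115587780). Its values were 1.11, 1.18 and 0.555 FPKM in MDL-800 1, 2 and 3 and 0.793, 0.957, 0.771 and 0.932 FPKM in control 1 to 4. The control libraries lay close together, and the MDL-800 libraries fell on both sides of them. The means were 0.946 ± 0.341 FPKM (SD, n = 3) and 0.863 ± 0.0948 FPKM (SD, n = 4). In a fit over all genes above 0 the log2 fold change was 0.05 with a 95% interval from -0.32 to 0.42 (limma adjusted p = 0.956). It was 0.20 without MDL-800 3 and turned to -0.059 over the Y-negative libraries.

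Tbx3, a T-box transcription factor that beta-catenin induces in liver, had the log2 difference farthest from 0 over the 7 libraries (chromosome 5, 119670669 to 119684724). It was at 6.11, 4.45 and 3.22 FPKM in MDL-800 1, 2 and 3 and at 7.37, 4.97, 7.99 and 6.43 FPKM in control 1 to 4. MDL-800 2 and MDL-800 3 lay below every control library, and MDL-800 1 lay above control 2. The means were 4.59 ± 1.45 FPKM (SD, n = 3) and 6.69 ± 1.31 FPKM (SD, n = 4). The log2 fold change was -0.48 with a 95% interval from -0.98 to 0.03 and did not pass limma (unadjusted p = 0.0604, adjusted p = 0.95). The direction was below 0 under all 19 alternatives, from -0.66 without MDL-800 1 to -0.29 without MDL-800 3, and was -0.43 over the Y-negative libraries. The 19 are not all separate checks. A robust prior or another filter cannot move the estimate, and the replicate block repeats the estimate without control 4. Tbx3 was not the farthest from 0 in every setting. Slc1a2, Gulo and Rhbg were farther over the Y-negative libraries, and Slc1a2 also under array weights and without MDL-800 2. Oat was farther without control 4, with the replicate block and without MDL-800 3, and Lect2 without MDL-800 3. Tbx3 shares 115 of its 6624 exon bases with the antisense transcript Tbx3os1 (mean 1.27 FPKM), and the library chemistry does not mark strand.

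Lect2 encodes a protein that hepatocytes secrete and that beta-catenin is known to induce (chromosome 13, 56542464 to 56548502). It was at 211, 215 and 176 FPKM in MDL-800 1, 2 and 3 and at 153, 207, 172 and 152 FPKM in control 1 to 4. As deposited, MDL-800 1 and MDL-800 2 lay above every control library, and MDL-800 3 lay below control 2. With summed reads as the denominator control 2 was highest, at 208 FPKM. MDL-800 1, 2 and 3 were then at 198, 168 and 161 FPKM. The means were 200.5 ± 21.6 FPKM (SD, n = 3) and 171 ± 25.9 FPKM (SD, n = 4), a log2 fold change of 0.23 with a 95% interval from -0.15 to 0.62 (limma adjusted p = 0.95). It was 0.13 over the Y-negative libraries and stayed above 0 under the 19 alternatives, some of which cannot move the estimate, as said for Tbx3.

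Rgn and Gulo encode regucalcin, which acts as the gluconolactonase of ascorbate synthesis, and L-gulonolactone oxidase, which carries out the last step of that pathway. Rgn (chromosome X, 20549787 to 20562089) was at 926, 1507 and 748 FPKM in MDL-800 1, 2 and 3 and at 1147, 834, 1232 and 993 FPKM in control 1 to 4. Gulo (chromosome 14, 65986786 to 66009207) was at 185, 286 and 159 FPKM in MDL-800 1, 2 and 3 and at 243, 192, 301 and 223 FPKM in control 1 to 4. For both genes MDL-800 2 and control 3 were the highest libraries and MDL-800 3 the lowest. Rgn had means of 1060.15 ± 397 FPKM (SD, n = 3) and 1051 ± 175 FPKM (SD, n = 4), and its log2 fold change was -0.04 with a 95% interval from -0.67 to 0.60 (limma adjusted p = 0.986). Its mean FPKM was higher in MDL-800 while its mean on the log2 scale was lower, and the log2 value turned above 0 with quantile normalization, with summed reads as the denominator and without MDL-800 1, MDL-800 3, control 1 or control 3. Gulo had means of 209.7 ± 67.2 FPKM (SD, n = 3) and 239.6 ± 45.7 FPKM (SD, n = 4), a log2 fold change of -0.22 with a 95% interval from -0.80 to 0.37 (limma adjusted p = 0.95). Over the Y-negative libraries the values were -0.27 for Rgn and -0.45 for Gulo. Without MDL-800 3 they were 0.18 and -0.040, and without MDL-800 2 they were -0.32 and -0.46. Gulo was also at -0.10 without control 3, -0.15 when MDL-800 1 was left out and -0.40 under array weights.

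**Figure D2:**
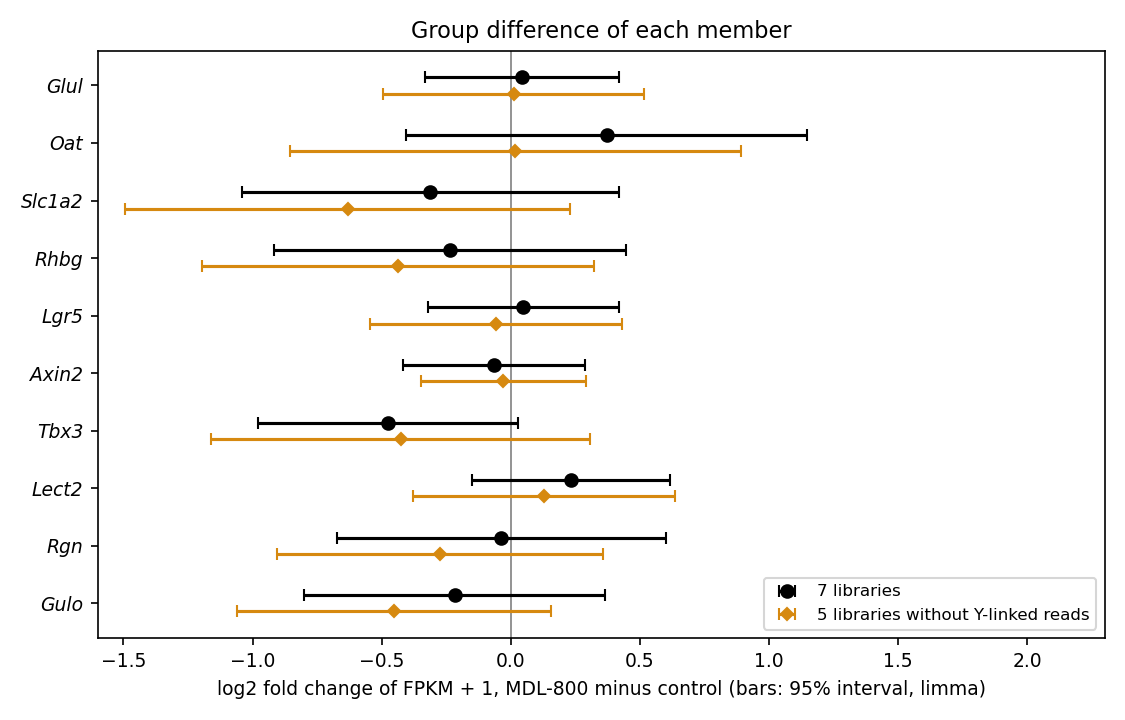
Log2 fold change of FPKM + 1 (MDL-800 minus control) with its 95% interval from limma, for each gene over 7 libraries (black circles) and over the 5 Y-negative libraries (orange diamonds). Every interval includes 0, and the point farthest from 0 over 7 libraries is that of Tbx3 at -0.48.

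Rgn and Gulo, the ascorbate genes, varied most alike of the 45 pairs of members, with a Pearson r of 0.935 over the 7 libraries on the log2 scale, 0.977 with the group means removed and 0.966 over the Y-negative libraries. Slc1a2 had an r of 0.788 with Gulo and 0.716 with Rgn. Glul and Rhbg, the ammonia-handling pair, had an r of 0.855, and Axin2 had 0.679 with Rhbg and 0.663 with Glul. Across these sets most values were lower over the 7 libraries and higher over the 5 Y-negative ones, so no separation into sets held in both. Axin2 went from -0.509 to 0.716 with Rgn and from -0.29 to 0.634 with Gulo. Rhbg went from 0.146 to 0.739 with Rgn and from 0.373 to 0.798 with Gulo. Tbx3, outside both sets, went from 0.420 to 0.942 with Rgn. All of these rest on 7 or 5 points that share library, depth and denominator, and are given as descriptions. With the summed reads as the denominator in place of the deposited one, r was 0.868 for Rgn and Gulo, 0.766 for Glul and Rhbg and 0.857 for Glul and Axin2.

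MDL-800 3 held the lowest value of 5 members (Slc1a2, Lgr5, Tbx3, Rgn and Gulo), and it did so on the deposited scale and with summed reads as the denominator. Control 3 held the highest value of 5 members (Glul, Rhbg, Axin2, Tbx3 and Gulo) on the deposited scale and of 3 with summed reads. MDL-800 2 was highest for Oat, Lgr5, Lect2 and Rgn as deposited and lowest for Axin2. Glul and Axin2, the 2 members most used as Wnt readouts, deviated from their means on the log2 scale by at most -0.27 (Axin2 in MDL-800 2) and 0.24 (Glul in control 3), and Lect2 and Lgr5 by at most -0.25 and -0.28. The added 1 of FPKM + 1 shrinks the deviations of low genes such as Lgr5 and Axin2. As FPKM, Lgr5 varied by 23.7% and Axin2 by 18.1% (coefficient of variation), against 14.8% for Lect2 and 11.4% for Glul. Oat reached 0.79 in MDL-800 2 and Rhbg 0.74 in control 3.

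**Figure D3:**
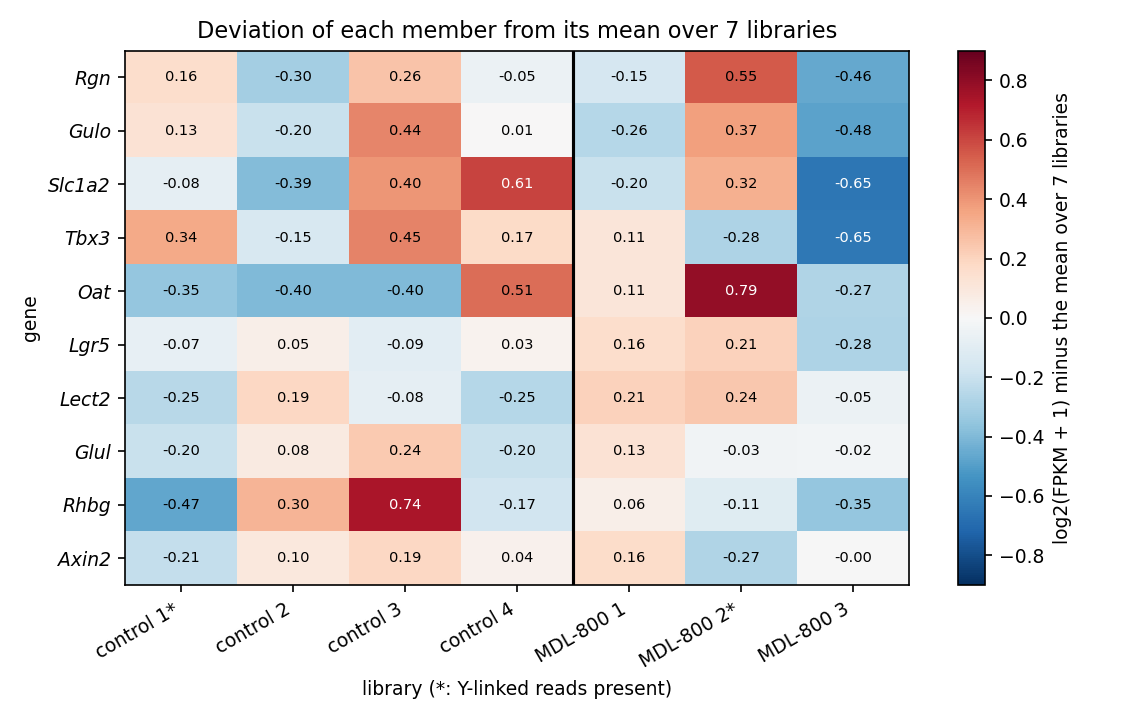
Deviation of log2(FPKM + 1) from each gene's mean over the 7 libraries, with libraries in columns (asterisk: Y-positive) and genes in rows. Rgn, Gulo and Slc1a2 share the negative values of MDL-800 3 (-0.46, -0.48 and -0.65) and the positive values of control 3, and Oat stands out in MDL-800 2 at 0.79.

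None of the 9 tested members passed the limma test between Y-positive and Y-negative libraries, in a model that also held the treatment group, while 2.42% of all tested genes did. Axin2 had the smallest unadjusted p of them, with a log2 difference of -0.34 (standard error 0.11, adjusted p = 0.153), lower in the Y-positive libraries. Rgn and Gulo were at 0.50 (standard error 0.24, adjusted p = 0.264) and 0.37 (standard error 0.24, adjusted p = 0.387), higher on average in those libraries. For both genes Y-positive control 1 (1147 and 243 FPKM) lay below Y-negative control 3 (1232 and 301 FPKM).

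In a list of 22 other tested pericentral hepatocyte genes, 3 passed the test of Y-linked reads, and they are named for that reason after their values were seen. Cyp2e1, the ethanol-inducible cytochrome P450, was higher in Y-positive libraries by 1.28 on the log2 scale (limma adjusted p = 0.0417). Aldh1a1, a retinaldehyde dehydrogenase, and Slco1b2, an organic anion uptake transporter, were higher by 1.15 and 0.99 (limma adjusted p = 0.0265 and 0.0278). Each of the 3 calls ended without any 1 of MDL-800 1, MDL-800 2, MDL-800 3 or control 1, and that of Cyp2e1 also ended without control 2, 3 or 4 and with quantile normalization (log2 difference 0.72). The adjusted p over these alternatives went up to 0.351 for Cyp2e1, 0.213 for Aldh1a1 and 0.325 for Slco1b2. Kupffer cell markers were lower in the same Y-positive libraries, with log2 differences from -2.19 to -1.73 for 7 of 8 and -0.60 for Timd4, none past limma (adjusted p from 0.078 to 0.401). This was not particular to Kupffer cells. The 5 neutrophil markers were at -1.64 to -1.23 and the 5 tested lymphocyte markers at -1.77 to -0.74, none past limma. Sinusoidal markers were mixed, from -0.80 (Pecam1) to 0.26 (Clec4g). The part of these cell types in the result was not tested, nor was a difference between members and Cyp2e1, Aldh1a1 and Slco1b2.

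Of 11 other Wnt target and feedback genes 9 were tested, and 0 passed limma in either direction. Their median log2 fold change was 0.15, with 5 above 0 and 4 below, and it was 0.045 over the Y-negative libraries and -0.050 without MDL-800 1. By smallest p the first were Rnf43, which removes Wnt receptors from the membrane, with a mean of 4.93 ± 1.80 FPKM (SD, n = 3) after MDL-800 against 3.52 ± 0.346 FPKM (SD, n = 4), then Myc and Tcf7 with log2 fold changes of -0.51 and -0.29. MDL-800 1 held the highest Rnf43 value, 6.77 FPKM, and without it the log2 fold change was 0.13. That of Myc ran from -0.86 to -0.21 and that of Tcf7 from -0.60 to -0.067 when single libraries were left out.

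Of 35 ligands, receptors and transducers of the pathway, 26 were tested and 0 passed limma, with a median of 0.08 (16 above 0, 10 below). Fzd4, a Wnt receptor that endothelial cells also carry, had a mean of 5.56 ± 1.23 FPKM (SD, n = 3) after MDL-800 against 3.39 ± 1.15 FPKM (SD, n = 4), a log2 fold change of 0.60 (limma unadjusted p = 0.0331, adjusted p = 0.95). Tcf7l2, the main TCF factor of hepatocytes, was at 1.76, 1.52 and 1.53 FPKM in MDL-800 1, 2 and 3. In control 1 to 4 it was at 2.15, 3.31, 1.93 and 2.36 FPKM, so the groups did not overlap on the deposited scale. Its log2 fold change was -0.39 (limma unadjusted p = 0.0359, adjusted p = 0.95), from -0.46 to -0.27 when a library was left out. With summed reads as the denominator it was -0.35 (limma unadjusted p = 0.125, adjusted p = 0.782). Pygo2, a beta-catenin coactivator, had -0.25. Ctnnb1, the beta-catenin gene, had a mean of 41.2 ± 2.97 FPKM (SD, n = 3) after MDL-800 against 37.4 ± 8.22 FPKM (SD, n = 4). Rspo3, the R-spondin of central vein endothelium, had a mean of 1.93 ± 0.147 FPKM (SD, n = 3) after MDL-800 against 1.49 ± 0.564 FPKM (SD, n = 4), with 0.68 FPKM in control 4. Ctnnb1 and Rspo3 were chosen after their values were seen. Central vein endothelial markers (Rspo3, Wnt2, Wnt9b, Kit and Thbd, of which 3 are also in the ligand list) summed to 3.90 to 4.40 FPKM in MDL-800 and 2.47 to 5.26 FPKM in control, lowest in control 4, as were the sinusoidal markers. Of these markers only Rspo3 and Thbd were tested, and they went in opposite directions. Rspo3 had a log2 fold change of 0.27 and Thbd of -0.39 (limma adjusted p = 0.95 for each). Thbd had a mean of 0.739 FPKM after MDL-800 against 1.33 FPKM in control, and it was also named after its values were seen. In bulk liver, fewer cells of a type cannot be told apart from less RNA per cell.

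Among the 22 tested pericentral hepatocyte genes that are not members (23 listed), 0 passed the test between MDL-800 and control in limma, 17 were above 0 and 5 below, with a median of 0.14 (0.064 over the Y-negative libraries). The first by p were Csad, of taurine synthesis, with a log2 fold change of 0.87, Avpr1a, a vasopressin receptor, with -0.59, and Cyp2c29, a cytochrome P450, with 0.54. Csad was at 1.35 over the Y-negative libraries, and left-out libraries moved it from 0.55 to 1.19, Avpr1a from -0.90 to -0.27 and Cyp2c29 from 0.38 to 0.72. Cyp2c29 was at 0.27 over the Y-negative libraries, and it has close paralogs, so its reads are uncertain. Periportal genes, which mark the opposite end of the lobule, had a median of -0.0094 over 21 tested, with 10 above 0, 11 below and 0 passing limma. That median was 0.066 with quantile normalization and 0.031 with summed reads. Hsd17b13, a lipid droplet enzyme, had a mean of 313 ± 90.8 FPKM (SD, n = 3) after MDL-800 against 169.8 ± 71.1 FPKM (SD, n = 4), and Fbp1, of glucose production, at 670.2 ± 42.7 against 497 ± 119 FPKM, with no overlap between the groups for Fbp1. Their log2 fold changes were 0.94 and 0.46, and that of Etnppl was 0.95. Left-out libraries moved Etnppl from 0.63 to 1.39 and Fbp1 from 0.29 to 0.58, and Hsd17b13 was at 1.36 over the Y-negative libraries.

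The metabolic neighbours of the members gave 0 limma calls as well. In the list of glutamate, glutamine and ornithine genes 10 of 14 were tested, 6 above 0 and 4 below, with a median of 0.14 that turned to -0.12 over the Y-negative libraries. Glud1, glutamate dehydrogenase, which releases or fixes the ammonia that Glul uses, was at 454, 420.0 and 408 FPKM in MDL-800 1, 2 and 3 and at 342, 322, 356 and 306 FPKM in control 1 to 4. The groups did not overlap, and the log2 fold change was 0.37, standard error 0.13 (limma unadjusted p = 0.0226, adjusted p = 0.95). The amino acid transporters Slc38a4 and Slc38a2 were at 0.56 and -0.43, from 0.30 to 0.79 and from -0.62 to -0.26 when libraries were left out. All 5 genes of ascorbate synthesis and transport next to Rgn and Gulo were above 0, with a median of 0.32 (0.47 over the Y-negative libraries). Ugdh, UDP-glucose dehydrogenase, had a mean of 26.8 ± 5.26 FPKM (SD, n = 3) after MDL-800 against 19.0 ± 3.74 FPKM (SD, n = 4), with a log2 fold change of 0.48. Ugp2, which makes UDP-glucose, was at 184 ± 49.3 FPKM against 109.1 ± 50.2 FPKM, with 0.81, and Slc23a2, an ascorbate transporter, had 0.32. Slc23a2 was at 0.10 without MDL-800 3, where it was highest (6.36 FPKM). These genes and the members are on the same 7 libraries, and a difference between them was not tested.

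**Figure D4:**
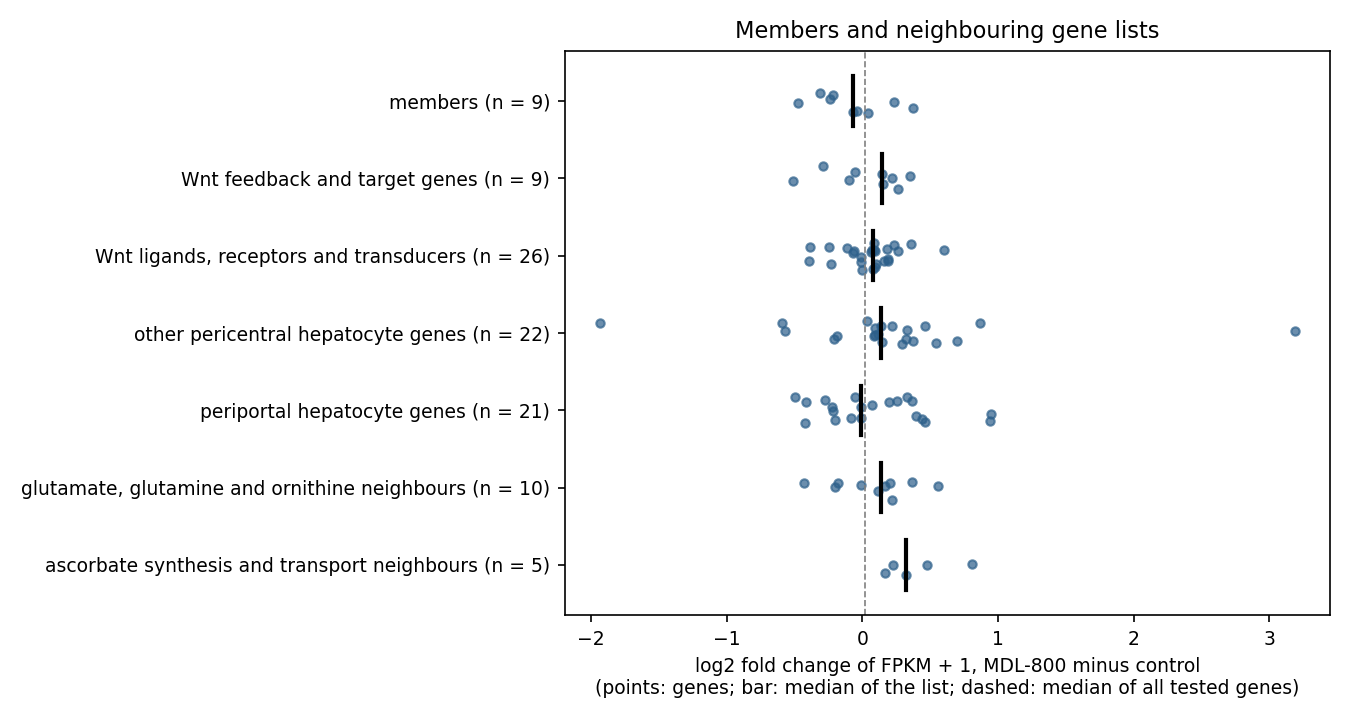
Log2 fold change of FPKM + 1 (MDL-800 minus control) of the 9 tested members and of the tested genes of 6 neighbouring lists (points, vertical position within a row is arbitrary), with the median of each list (bar) and of all tested genes (dashed line at 0.02). Most points lie within 1 of 0, no gene passed limma, and the pericentral genes run from Cyp2c54 at -1.94 to Cyp3a11 at 3.19.

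The genes whose levels followed Glul most closely over the 7 libraries, among 11385 other tested genes, were Lemd3, Odc1 and Eid2b, with Pearson r of 0.977, 0.972 and 0.971. Those nearest to Axin2 were Trim12c, Arntl and Ankrd13a, with 0.983, 0.982 and 0.976. Arntl, which encodes the circadian factor BMAL1, was at 3.37, 1.25 and 2.82 FPKM in MDL-800 1, 2 and 3 and at 1.33, 3.59, 4.29 and 2.85 FPKM in control 1 to 4, lowest in the same Y-positive libraries as Axin2. With 7 libraries 53 genes had an r over 0.9 with Glul and 99 with Axin2, so these are a description only.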

How the data were processed

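RNA of 3 MDL-800 and 4 control livers was measured. Per the labels' protocols, lysed liver was turned into cDNA with a low-input SMARTer kit, amplified, sheared and made into libraries with an NEBNext kit. The authors deposited FPKM values per gene. TopHat2 2.0.14, Bowtie2 2.1.0, Cufflinks 2.2.1 and build mm9 are named in the submitters' processing notes, with their roles not stated there. Coordinates follow GRCm38: 53756 of 54409 identifiers shared with GENCODE M21 have its chromosome and start.

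FPKM times gene length gave whole reads (100% of nonzero values within 0.01), with summed reads at 0.995 to 1.28 times the deposited denominator. Values were tested as log2(FPKM + 1), which understates changes of low genes, as scaled by the authors, for the 11394 genes averaging 1 FPKM or more, by limma 3.58.1 in R 4.3.3 (eBayes with trend, two-sided, Benjamini-Hochberg over all tested genes, threshold 0.05). The procedure was tested on simulated data, and its power to find true changes is not given here. A gene that did not pass is therefore not shown to be unchanged. Plots used matplotlib 3.10.9 in Python 3.11.15.

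Members, lists and alternatives were chosen with earlier results of these data known. Named genes are the members, up to 3 genes of each other list with the smallest p, up to 2 genes of each marker list with the highest mean (markers are given here as sums), and the 3 genes most correlated with Glul and with Axin2; others are said to be chosen after their values were seen. Alternatives were a pseudocount of 0.1, no filter on level, a filter at 5 FPKM, median scaling, quantile normalization, summed reads as the denominator, array weights, a replicate block, voom on recovered reads, a robust prior, a term for Y-linked reads, the Y-negative libraries alone and leaving out each library. Alternatives to the test of Y-linked reads were chosen after seeing the data.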

Additional observations from a re-analysis of the deposited data

Results flagged for a closer look

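In 28 control groups of 4 libraries (the members and the named genes of the other lists), 3 held a library whose gap to the nearest other exceeded Dixon's 95% critical value for 4 values, and chance flags about 1 in 20 groups. Oat stood at 476.1 FPKM in control 4, where the next highest control was at 263.1 FPKM. Pygo2 stood at 5.492 FPKM in control 4, below the next control at 6.038 FPKM. Tcf7 stood at 2.574 FPKM in control 1, below the next control at 4.278 FPKM.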

How the results depend on the processing

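The count of genes passing limma between MDL-800 and control was 0 and ran from 0 to 1 when a library was left out (1 without MDL-800 1 and 1 without control 1, neither a member). It was 0 under the 12 other alternatives. Genes with an unadjusted p under 0.05 numbered 553 (368 higher), 946 with array weights, 1083 of 26975 without a filter, 305 of 5900 with a mean of at least 5 FPKM, 192 with the replicate block, 948 without control 1, and 274 without MDL-800 3. With summed reads 630 of 776 were higher. No member passed under any alternative (adjusted p from 0.616 to 1). For Oat, Slc1a2, Rhbg, Tbx3, Lect2 and Gulo the direction held in every alternative run. The others turned: Glul to -0.016 with the replicate block, with values from -0.016 to 0.13 when a library was left out, Lgr5 to -0.059 over the Y-negative libraries (-0.041 to 0.20 with a library left out), Axin2 with -0.17 to 0.052, and Rgn to 0.11 with quantile normalization and 0.0040 with summed reads (-0.32 to 0.18). The 18 named genes of other lists kept direction and side in all alternatives (lowest limma adjusted p 0.532). They were picked by smallest p in the same libraries, which favours a steady direction, so they cannot be compared with the members in this. Axin2, Rhbg and Lgr5 have no value at a mean of at least 5 FPKM. Libraries with the same number did not deviate together (r of -0.587, -0.553 and 0.0565, and 0 of 6 libraries correlated best with their own number). The Y-positive libraries, control 1 and MDL-800 2, correlated best with each other and carry different numbers. The check therefore cannot decide whether the numbers mark pairs. The replicate block changed no call. Reads without molecular identifiers are not independent molecules, and 26 reads of Rhbg in control 1 set the lowest depth.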

Other observations

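Cyp3a11, a cytochrome P450 of the pericentral list chosen here after its values were seen, was at 451, 384 and 809 FPKM in MDL-800 1, 2 and 3 and at 278, 65.4, 0.943 and 293 FPKM in control 1 to 4. The groups did not overlap, control 3 stood far below the rest, and the log2 fold change of 3.19 (standard error 1.71) did not pass limma (adjusted p = 0.95). It was 4.17 over the Y-negative libraries and ran from 1.56 to 3.98 when a library was left out. Cyp2c54, the lowest of the same list and also chosen after its values were seen, was at 21.8, 374 and 3.58 FPKM in MDL-800 1, 2 and 3 and at 220.0, 84.8, 58.2 and 252 FPKM in control 1 to 4. Its groups overlapped, and its log2 fold change was -1.94 (limma adjusted p = 0.95), -3.41 over the Y-negative libraries and from -3.67 to -0.49 when a library was left out. Both genes have close paralogs, so their reads are uncertain.

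Tbx3os1, the antisense neighbour of Tbx3, was at 1.01, 1.63 and 0.486 FPKM in MDL-800 1, 2 and 3 and at 2.46, 1.05, 0.379 and 1.88 FPKM in control 1 to 4. The groups overlapped.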
